A study of Mus musculus with 6 samples.

Results

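The genes described here encode the laminin chains, the integrin subunits and the basement membrane proteins nidogen, perlecan and agrin. They were taken by name from the deposited RNA-sequencing table: every gene symbol beginning with Itga, Itgb or Lama, Lamb or Lamc followed by a digit, together with Nid1, Nid2, Hspg2 and Agrn. The rule found 46 of the 23361 genes of the table. Of these, 11 are laminin chain genes, 27 are integrin subunit genes, 4 are nidogen, perlecan and agrin genes, and 4 carry an integrin name without being a subunit (Itgb1bp1, Itgb1bp2, Itgb3bp and Itgbl1).

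Taste cells came from the circumvallate (CV) and the foliate (Fol) papillae, which carry the taste buds of the posterior tongue, of C57BL/6 mice with no treatment or transgene named in the labels. The groups were 2 months of age, with 3 libraries of cells pooled from 4 mice each, and 6 months of age, with 3 libraries of cells pooled from 3 mice each. The labels give 2 and 6 months, while the design text names 3 months in place of 2 in one sentence. The table holds 1 FPKM value per gene and age, set by the authors from the libraries of each group (fragments mapped to the gene, scaled by transcript length and by mapped fragments). No value per library was analysed, so no SD, interval or test is given, and a difference between the ages cannot be set against the spread between pools. Sequencing depth is unknown here.

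A basement membrane is the sheet of extracellular matrix on which an epithelium rests. Laminins are trimers of an alpha, a beta and a gamma chain that polymerise into this sheet, and nidogens, perlecan and agrin join the laminin network to collagen IV and to cell surfaces. Integrins are alpha-beta dimers through which cells hold on to the matrix. Basal cells of stratified epithelia, the layer from which taste cells are renewed, are anchored by laminin and by the integrin pair Itga6 and Itgb4 of the hemidesmosome.

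A mean of at least 1 FPKM over both ages was reached by 27 of the 46 genes, or 58.7%, where the share was 54.2% of all genes of the table. These 27 genes are called expressed below. Their means ran from 1.33 FPKM for Itgae to 64.7 FPKM for Itgb4, and 11 genes had a mean of at least 10 FPKM. The remaining 19 genes had means from 0.00814 to 0.950 FPKM. Itgad was the only member listed at 0 in either age, with 0 and 0.0163 FPKM at 2 and 6 months.

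**Figure D1:**
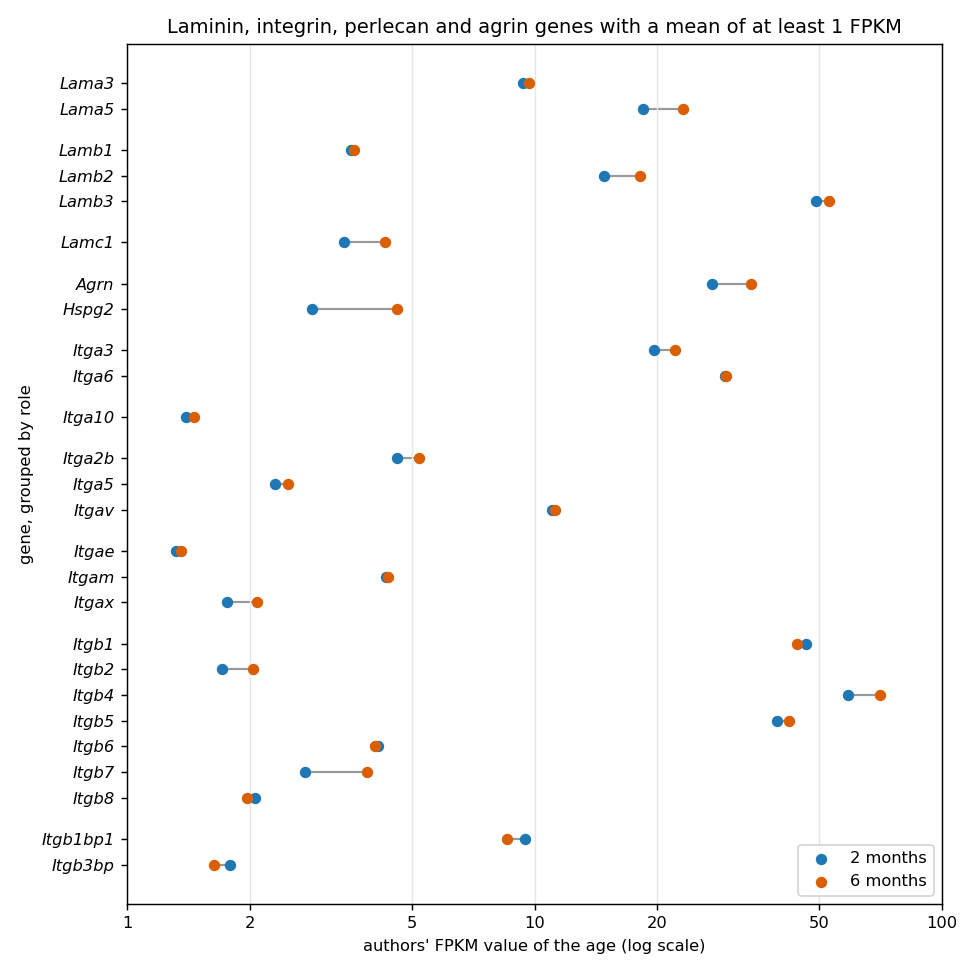
FPKM values of the authors for 26 expressed genes at 2 months (blue) and 6 months (orange), on a log scale, with genes grouped by role and a line joining the ages; each point is 1 value per age with no spread. Itgb4, Lamb3, Itgb1 and Itgb5 had the highest levels, and the widest gap between the ages was that of Hspg2, from 2.85 to 4.60 FPKM.

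Among the laminin chains shown, Lamb3 had the highest level. Lamb3, a beta chain gene of stratified epithelia, is found on chromosome 1 of GRCm38, positions 193207699 to 193343878, and was at 49.1 and 53.0 FPKM at 2 and 6 months. Lama3, an alpha chain gene of the same epithelia, was at 9.39 and 9.68 FPKM, so that the level of Lamb3 was 5.23 times that of Lama3 at 2 months and 5.47 times at 6 months.

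The chains of the laminins that are common under most epithelia formed another set. Lama5, the alpha chain gene of these laminins, was at 18.4 and 23.1 FPKM at 2 and 6 months. Lamb2 was at 14.8 and 18.1 FPKM, and the other beta chain gene, Lamb1, was at 3.54 and 3.60 FPKM. Lamc1, the gamma chain gene they share, was at 3.41 and 4.29 FPKM. The level of Lama5 was therefore 5.40 times that of Lamc1 at 2 months and 5.39 times at 6 months, and that of Lamb2 was 4.19 and 5.04 times that of Lamb1. Summed over these chains, Lama5, Lamb1, Lamb2 and Lamc1 came to 40.2 and 49.2 FPKM at the ages of 2 and 6 months.

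Another 4 laminin genes were under 1 FPKM. Lama1, a chain of embryonic basement membranes, was at 0.240 and 0.303 FPKM. Lama4, a chain of vessel walls, was at 0.124 and 0.137 FPKM, and Lama2, the chain of the muscle and nerve basement membrane, was at 0.0122 and 0.00761 FPKM. Lamc3 was at 0.0693 and 0.0214 FPKM at 2 and 6 months. The order of 10 chains by level was the same at both ages, except that Lamb1 stood above Lamc1 at 2 months and below it at 6 months. With no spread between pools at hand, neighbours in this order, such as Lama5 and Lamb2 or Lamc1 and Lamb1, cannot be told apart by a test.

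**Figure D2:**
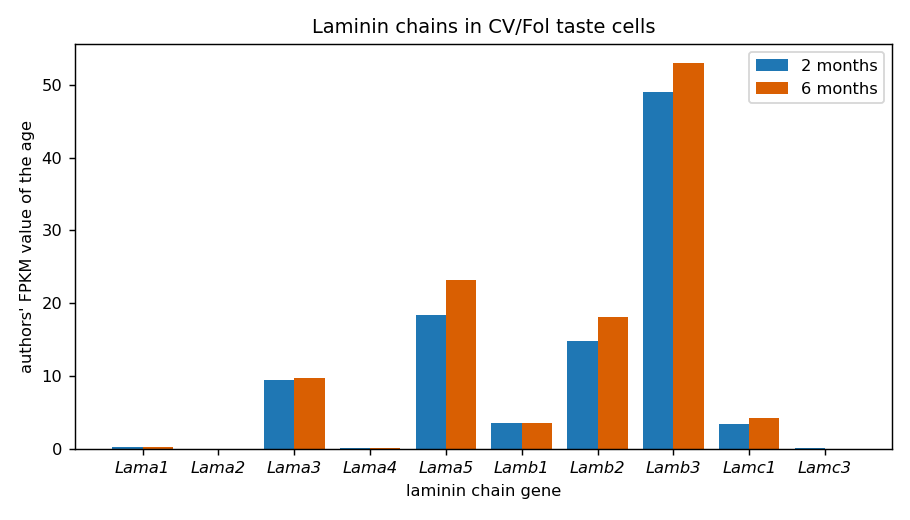
FPKM values of the authors for 10 laminin chain genes at 2 months (blue) and 6 months (orange), 1 value per age with no spread. Lamb3 stood at 49.1 and 53.0 FPKM, and Lama1, Lama2, Lama4 and Lamc3 lay under 0.31 FPKM at both ages.

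Among genes of proteins that join laminin to the rest of the matrix, the RNA of agrin was high and that of the nidogens was low. Protein was not measured in these data. Agrn encodes agrin, a heparan sulfate proteoglycan best known for its role at the neuromuscular junction, and lies on chromosome 4 from 156165290 to 156197488. It was at 27.2 and 33.9 FPKM at 2 and 6 months. Hspg2, the gene of perlecan, lies on chromosome 4 from 137468769 to 137570630 and was at 2.85 and 4.60 FPKM. The level of Agrn was 9.55 times that of Hspg2 at 2 months and 7.37 times at 6 months. Nid1 was at 0.117 and 0.0974 FPKM and Nid2 at 0.356 and 0.177 FPKM, both under 1 FPKM. The main collagen IV chain genes, Col4a1 and Col4a2, were under 0.38 FPKM as well, while Col4a5 was at 2.96 and 3.11 FPKM and Col4a6 at 1.80 and 2.31 FPKM. Col17a1 and Col7a1, which anchor the hemidesmosome and the basement membrane of stratified epithelia, were at 132.9 and 152.1 FPKM and at 18.7 and 20.2 FPKM. The collagen genes were chosen with their values known.

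Among integrin alpha subunits, the laminin receptors led. Itga6 was at 29.4 and 29.5 FPKM at 2 and 6 months and had the smallest difference of all expressed members on the log2 scale. Itga3, the other epithelial laminin receptor subunit, was at 19.6 and 22.2 FPKM. Itga7, the laminin receptor subunit of muscle, was at 0.106 and 0.127 FPKM. Together Itga6 and Itga3 made up 37.4% and 25.0% of the summed FPKM of all integrin alpha subunits at 2 months, and 35.5% and 26.7% at 6 months.

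The receptors for ligands with an Arg-Gly-Asp sequence, such as fibronectin and vitronectin, followed. Itgav, which pairs with several beta subunits, was at 11.0 and 11.2 FPKM. Itga5, the fibronectin receptor subunit, was at 2.31 and 2.48 FPKM, and Itga8 was under 0.016 FPKM at both ages. Of the collagen receptor subunits, Itga10 was at 1.39 and 1.46 FPKM, Itga2 at 0.462 and 0.754 FPKM, and Itga1 and Itga11 were under 0.17 FPKM. Itga9 and Itga4 were under 1 FPKM, with Itga9 at 0.937 and 0.818 FPKM and Itga4 at 0.297 and 0.271 FPKM.

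Of the integrin beta subunits, 3 stood far above the rest. Itgb4, the hemidesmosome subunit on chromosome 11 from 115974709 to 116008412, was at 59.0 and 70.4 FPKM at 2 and 6 months. Itgb1, which pairs with most alpha subunits, was at 46.4 and 44.0 FPKM, and Itgb5, a partner of Itgav, was at 39.4 and 42.2 FPKM. The level of Itgb4 was 2.00 times that of its only known partner Itga6 at 2 months and 2.39 times at 6 months. Itgb6 and Itgb8, epithelial partners of Itgav that activate transforming growth factor beta, were at 4.12 and 4.06 FPKM and at 2.06 and 1.97 FPKM. Annotated genes on the opposite strand overlap exons of Itgb4 (B230344G16Rik), Itgav (Gm13684) and Lama3 (Gm29200), and Gm42957 overlaps Itga10 on the same strand, so part of these values may come from those genes.

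Several subunits of blood cells were detected, and their levels did not follow those of their partners. Itga2b, the platelet subunit that pairs only with Itgb3, was at 4.59 and 5.22 FPKM at 2 and 6 months. Its partner Itgb3 was at 0.211 and 0.156 FPKM, which makes Itga2b 21.7 and 33.4 times as high. Among 8 platelet genes, drawn up with these values known, Ppbp was at 172.7 and 151.1 FPKM, Gp1bb at 5.65 and 8.52 FPKM and Pf4 at 2.88 and 1.29 FPKM, and the other 5, Gp1ba, Gp5, Gp6, Gp9 and Treml1, were under 1 FPKM, with Gp6 listed at 0 in both ages. The part of platelet RNA in the level of Itga2b was not tested.

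The leukocyte subunits were low. Itgam, a myeloid subunit, was at 4.32 and 4.38 FPKM, Itgax at 1.76 and 2.08 FPKM and Itgal at 0.903 and 0.996 FPKM. Their shared partner Itgb2 was at 1.71 and 2.03 FPKM at 2 and 6 months, under the summed level of its alpha subunits, which was 4.09 and 3.67 times as high. In the annotation a gene on the same strand, Gm49368, overlaps exons of Itgam, and Itgax and Itgad lie beside it in the genome as related copies, so these values are uncertain. Leukocyte marker genes summed to 375.8 and 325.5 FPKM at 2 and 6 months, most of it from Lyz2 at 293.3 and 253.7 FPKM and S100a8 at 65.4 and 56.1 FPKM. Of the 9 markers in the table, 6 had a mean of at least 1 FPKM. By gene, 3 of these 6 were higher and 3 lower at 6 months, with a median log2 difference of -0.07. The defining leukocyte gene Ptprc was at 1.54 and 1.65 FPKM.

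Itgb7, the subunit of intestinal and intraepithelial lymphocytes, was at 2.73 and 3.88 FPKM at 2 and 6 months, a log2 difference of 0.39. Its partners did not differ alike, since Itgae was at 1.31 and 1.35 FPKM and Itga4 was lower at 6 months. Over 9 T cell genes, drawn up with these values known, the summed level went from 3.76 to 5.57 FPKM, and 1 of the 9, Cd3g, had a mean of at least 1 FPKM. Cd3e was at 0.370 and 0.822 FPKM and Lck at 0.351 and 0.931 FPKM, while Cd3g was at 1.55 and 1.31 FPKM. The part of lymphocyte number in the level of Itgb7 was not tested. In RNA of pooled cells, more cells of a type and more RNA per cell cannot be told apart.

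The genes with an integrin name that are no subunit were lower at 6 months or under 1 FPKM. Itgb1bp1, a cytoplasmic protein that binds the tail of Itgb1, was at 9.45 and 8.57 FPKM at 2 and 6 months. Itgb3bp, a centromere protein, was at 1.79 and 1.63 FPKM. In the annotation, Asap2 and Cpsf3 on the opposite strand overlap exons of Itgb1bp1, and Pgm1 overlaps Itgb3bp. Itgbl1 and Itgb1bp2, which encodes a protein of striated muscle, were under 1 FPKM, with Itgb1bp2 at 0.265 and 0.237 FPKM.

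Log2 differences between the ages ran from -0.13 to 0.54 across the expressed members. Each is log2(FPKM + 1) of the 6 month value minus that of the 2 month value, a scale on which differences of low genes come out too small. Of the 27 expressed members, 0 differed by at least 1.5-fold on this scale, where 2.77% of the 12652 expressed genes of the table did. Among so few genes, a count of 0 lies near that share. A lower bar, a log2 difference of at least 0.32, was passed by 2 members that were higher, Hspg2 and Itgb7, and by 0 that were lower, and the background was 2.95% higher and 4.23% lower genes. The share of 7.41% of members past this bar in either direction lies near the 7.18% of all expressed genes. The log2 difference was under 0.2 in size for 20 of the 27 members. The share of all expressed genes under that size was not computed, so this count has no background beside it.

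Hspg2 had the largest log2 difference of the members, 0.54, followed by Itgb7 with 0.39, Lama5 and Agrn with 0.31 each, Lamb2 with 0.27, Lamc1 with 0.26 and Itgb4 with 0.25. As a plain ratio of FPKM values, Hspg2 was 1.61 times as high at 6 months. It was past 1.5-fold with a pseudocount of 0.1, where its log2 difference was 0.67. The lowest value was that of Itgb1bp1, with -0.13, and the other members with a lower value at 6 months were Itgb3bp (-0.08), Itgb1 (-0.07), Itgb8 (-0.05) and Itgb6 (-0.02). The last 3 turned positive when the 6 month values were scaled so that the summed FPKM, without microRNA and small nucleolar RNA genes, was equal in both ages. Itgb6 also did so with equal upper quartiles.

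**Figure D3:**
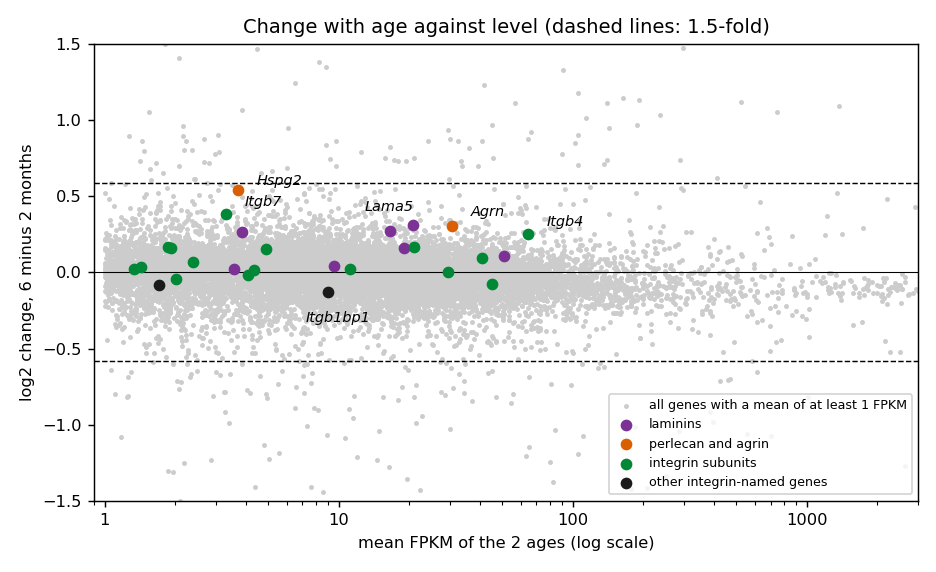
Log2 difference of FPKM + 1, 6 months minus 2 months, against the mean FPKM of both ages on a log scale, with expressed genes of the table in grey, laminins in purple, perlecan and agrin in orange, integrin subunits in green and other integrin-named genes in black; 162 grey genes lie outside the axes. All 27 coloured points lie between the dashed lines at 1.5-fold, with Hspg2 at 0.54 as the highest.

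By sign alone, 22 of the 27 expressed members, or 81.5%, had a higher value at 6 months, where 46.3% of all expressed genes did. The median log2 difference was 0.10 over the members and -0.01 over all expressed genes. All 7 expressed laminin chains, perlecan and agrin were higher, with a median of 0.26 over these 9 genes, and 13 of the 16 expressed integrin subunits were higher, with a median of 0.05. The background depends on the scaling. With equal upper quartiles 57.7% of all expressed genes and 23 members were higher, and with equal summed FPKM 70.8% and 25 members.

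Transcript length and GC content moved with these differences. The members are long, with a median of 4861 bases for the longest annotated transcript against 3229 bases over all expressed genes, and they have a median GC content of 53.0% against 49.9%. Across all expressed genes, the median log2 difference was -0.10 for transcripts under 2000 bases with a GC content under 50%, and 0.11 for the 185 genes with transcripts of at least 6000 bases and a GC content of at least 55%. Of those 185 genes, 82.2% had a higher value at 6 months and 7.03% were higher by a log2 difference of at least 0.32. Hspg2, Lama5, Agrn and Itgb4 belong to them, with transcripts of 14187, 11388, 8612 and 6208 bases. Relative to the median of expressed genes in the same bin of length and GC content, 19 of the 27 members were higher and 8 lower, with a median of 0.05. On this scale Hspg2 had 0.43, Itgb7 0.37, Lamb2 0.22, Lama5 and Agrn 0.20 each, and Itgb4 0.14, while Lama3 had -0.04 and Lamb1 -0.01.

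Across the 27 members, which are genes of the same libraries and not replicates, the log2 difference had a Spearman rho of 0.85 and a Pearson r of 0.79 with GC content, and a rho of 0.35 with transcript length. Over all 12546 expressed genes with an annotated transcript, rho was 0.07 with GC content and 0.30 with length. Members with a GC content under 50%, such as Itga6, Itgav, Itgb1, Itgb6 and Itgb8, had differences from -0.13 to 0.02, and those at 58% or above, such as Itgb7, Lamb2, Lama5, Itgb4 and Hspg2, from 0.15 to 0.54. The part of base composition and length in the values of the members was not tested beyond the bins.

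**Figure D4:**
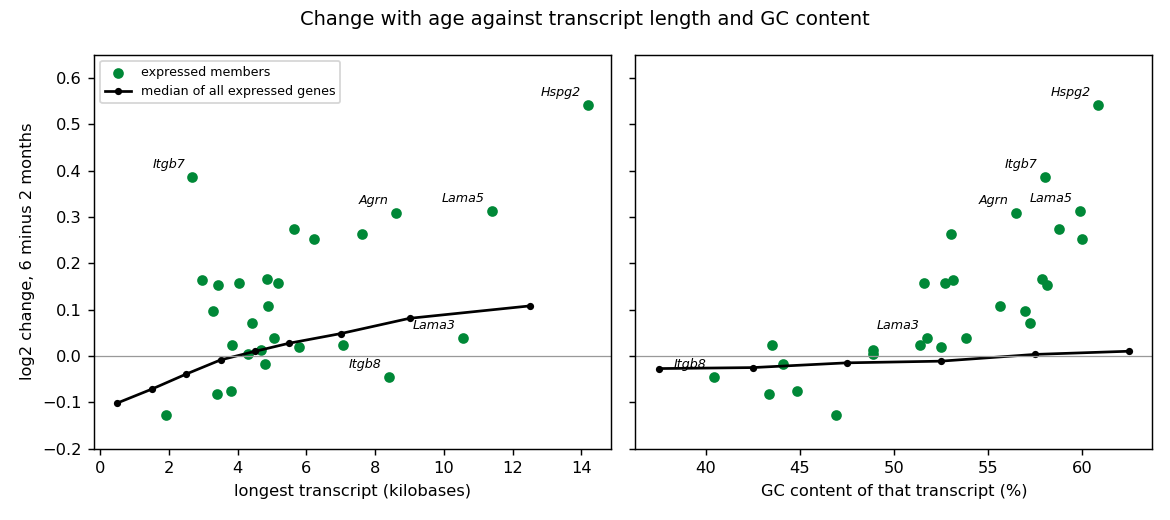
Log2 difference of FPKM + 1, 6 months minus 2 months, of the 27 expressed members (green) against the length of the longest annotated transcript in kilobases (left) and its GC content in percent (right); the black line joins medians of all expressed genes in bins. The members spread widely around the line, from -0.13 for Itgb1bp1 to 0.54 for Hspg2, and the GC-rich members lie highest.

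The sequence before the start of the genes with the largest differences is shown to let their base composition be seen. RefSeq promoter windows were found for 30 of the 46 members and 20 of the 27 expressed members. The windows of Hspg2, Itgb7, Lama5 and Agrn, which had the 4 largest log2 differences, are printed below 5′ to 3′ along the strand of the gene, from 250 bases before the RefSeq start up to the base before the annotated gene, in coordinates of GRCm38.p6. Capitals mark the GC box letters GGGCGG or, on the other strand, CCGCCC.
Hspg2, chr4:137468553-137468768, plus strand: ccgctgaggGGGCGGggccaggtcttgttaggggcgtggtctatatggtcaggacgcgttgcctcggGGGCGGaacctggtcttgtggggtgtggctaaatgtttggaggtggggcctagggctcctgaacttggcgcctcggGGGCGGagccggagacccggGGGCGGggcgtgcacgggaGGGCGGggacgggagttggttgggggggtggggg
Itgb7, chr15:102231945-102232185, minus strand: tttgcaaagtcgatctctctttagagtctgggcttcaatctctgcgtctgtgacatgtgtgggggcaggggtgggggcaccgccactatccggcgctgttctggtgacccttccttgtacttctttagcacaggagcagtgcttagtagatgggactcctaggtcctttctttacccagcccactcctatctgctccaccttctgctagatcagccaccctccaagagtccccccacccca
Lama5, chr2:180225860-180226109, minus strand: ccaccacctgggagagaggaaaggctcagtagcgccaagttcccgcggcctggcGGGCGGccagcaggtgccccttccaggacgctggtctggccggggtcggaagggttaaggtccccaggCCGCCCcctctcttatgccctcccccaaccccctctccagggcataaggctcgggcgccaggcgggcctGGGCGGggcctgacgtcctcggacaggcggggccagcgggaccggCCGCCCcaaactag
Agrn, chr4:156197489-156197738, minus strand: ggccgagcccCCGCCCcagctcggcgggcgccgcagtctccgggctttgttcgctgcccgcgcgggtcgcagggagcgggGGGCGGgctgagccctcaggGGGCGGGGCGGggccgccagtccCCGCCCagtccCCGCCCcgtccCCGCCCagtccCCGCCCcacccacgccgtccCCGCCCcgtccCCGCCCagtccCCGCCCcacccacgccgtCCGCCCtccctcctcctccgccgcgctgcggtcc
The windows of Hspg2, Lama5 and Agrn had a GC content of 70.8%, 72.4% and 83.6% and held 5, 4 and 12 GC boxes, some of them overlapping in Agrn. For Agrn this is the window before the annotated gene. A further RefSeq window of Agrn, inside the gene, had a GC content of 60.8% with 2 GC boxes and is not printed. That of Itgb7 had a GC content of 55.6% and held 0. A GC box in the 250 bases before the start was present in 32.7% of all 32851 windows, whose median GC content was 52.4%, and in 11 of the 24 windows that these 20 expressed members have. Over all members with a window, expressed or not, it was in 14 of 34. All 32851 windows include genes that are not expressed here, and no share over expressed genes alone was computed. Lamb2, with a difference near that of Agrn, had a window of 43.6% GC with 0 boxes. The letters of the AP-1 site, TGACTCA or TGAGTCA, were in 4.46% of all windows and in 1 of the 24, that of Itgax. These are matches of letters and not shown sites.

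The neighbours of these genes in the pathway were taken from lists drawn up for the tissue. Of 25 further basement membrane genes, 18 were expressed, 11 of them higher and 7 lower at 6 months, with a median log2 difference of 0.08. By at least 1.5-fold, 0 differed in either direction. Over all expressed genes, 2.77% differed by that much and 46.3% were higher at 6 months. In lists this short, a count of 0 past 1.5-fold lies near the 2.77%. The largest differences were those of Egfl6, from 1.21 to 2.17 FPKM, Fbln2, a fibulin that binds laminin and nidogen, from 12.1 to 16.8 FPKM, and Sparc, a matrix protein that binds collagen, from 4.47 to 3.35 FPKM. Of 8 laminin receptors other than integrins and hemidesmosome genes, all were expressed, 5 higher and 3 lower, with a median of 0.06 and 0 past 1.5-fold. Plec, the plectin that links Itgb4 to keratin filaments, was at 26.0 and 33.2 FPKM, Bcam, a laminin receptor, at 75.0 and 92.4 FPKM, and Dst, another hemidesmosome linker, at 10.8 and 13.0 FPKM.

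Of 25 integrin adaptor and adhesion kinase genes, 24 were in the table and 22 were expressed, 14 higher and 8 lower, with a median of 0.03. None of the 22 was past 1.5-fold in these values, which in a short list lies near the 2.77% of all expressed genes. Flna, a filamin that ties integrin tails to actin, was at 37.3 and 47.0 FPKM, Fermt2, a kindlin, at 3.60 and 2.77 FPKM, and Parva, a partner of integrin-linked kinase, at 23.7 and 20.7 FPKM. Of 16 basement membrane proteases and inhibitors, 10 were expressed, 4 higher and 6 lower, with a median of -0.03 and 0 past 1.5-fold. Timp2, a metalloproteinase inhibitor, was at 14.3 and 11.3 FPKM, Plat at 7.23 and 5.77 FPKM and Plau at 25.2 and 21.0 FPKM, both of which encode plasminogen activators.

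The list of other integrin ligands had the lower values. Of its 22 genes, 11 were expressed, 3 higher and 8 lower at 6 months, with a median of -0.19, and 2 were lower by at least 1.5-fold, where the background of lower genes was 1.72%. Cyr61, a matricellular ligand and an immediate early gene, went from 4.85 to 1.94 FPKM, a log2 difference of -0.99. Thbs1, the gene of thrombospondin, went from 23.4 to 14.9 FPKM, a difference of -0.62, and Spp1, the gene of osteopontin, from 1.33 to 0.711 FPKM, a difference of -0.44. The median of this list lay at -0.04 with genes of 5 FPKM or more in the mean. Fn1, the gene of fibronectin, was at 0.562 and 0.622 FPKM.

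**Figure D5:**
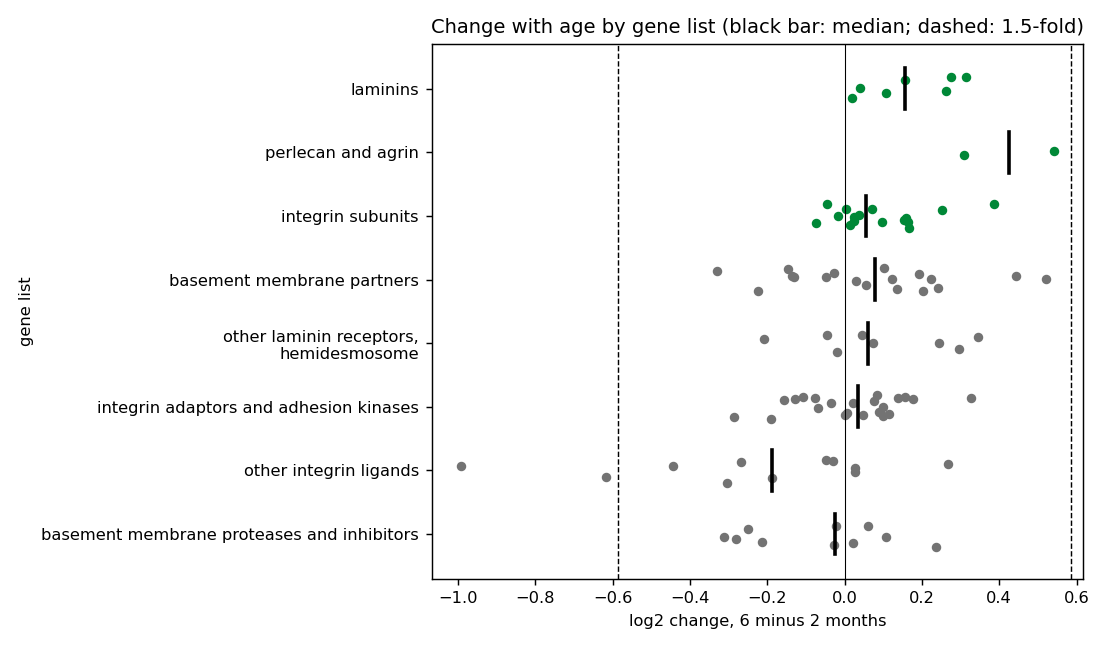
Log2 difference of FPKM + 1, 6 months minus 2 months, of each expressed gene, by list, with members in green and pathway neighbours in grey, the black bar at the median and dashed lines at 1.5-fold; points are spread vertically only to be seen. Laminins, perlecan and agrin all lie above 0, and 2 of the other integrin ligands, Cyr61 and Thbs1, lie below the lower dashed line.

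Markers were read to see which cells the pools held. Taste cell markers were present, 9 of 9 expressed, with a sum of 502.2 and 459.3 FPKM, Krt8 at 234.3 and 196.7 FPKM and Gnat3, the taste G protein, at 84.7 and 79.9 FPKM. Of these 9 markers 5 were higher and 4 lower at 6 months, with a median log2 difference of 0.05. The largest difference was that of Tas1r3, a subunit of the sweet and umami taste receptors, from 10.3 to 14.6 FPKM. The authors report Tas1r3 as unchanged by qRT-PCR, and taste cell markers as unchanged in their sequencing data. Basal keratinocyte markers, 4 of 4 expressed, summed to 4484 and 4437 FPKM at 2 and 6 months, led by Krt5 and Krt14. Krt14 was higher at 6 months, from 1287 to 1533 FPKM, and the other 3, Krt5, Krt15 and Trp63, were lower. The median log2 difference of these basal markers was -0.13. Of 6 suprabasal markers, 5 were expressed and all 5 were lower at 6 months, 4 of them by at least 1.5-fold, where the background of lower genes was 1.72%, with Lor at 1292 and 732.9 FPKM. Krt4, at 7334 FPKM at 2 months, was listed at 0 at 6 months, and Krt13 was listed at 0 in both ages, which in a table without counts can be a failed estimate. Krt4 is among the 5 lower markers and the 4 past 1.5-fold. Among all genes, 17 were listed at 0 in exactly 1 age with over 100 FPKM in the other. The part of suprabasal cells in the values of the members was not tested.

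Of the markers of the tissue under the epithelium, most were under 1 FPKM in the endothelial, pericyte, fibroblast and adipocyte lists, while Dcn of the fibroblast list and Mbp of the Schwann cell list stood above the median of expressed genes, which was 11.8 and 11.7 FPKM. Of 8 endothelial genes, 2 were expressed and the sum was 6.25 and 5.64 FPKM, with Vwf at 3.94 and 3.34 FPKM and Tek at 1.57 and 1.55 FPKM, and Pecam1 and Cdh5 were under 0.34 FPKM, with Emcn listed at 0 at 6 months. Of 7 pericyte and smooth muscle genes, 3 were expressed and the sum was 5.69 and 6.30 FPKM, led by Acta2 and Tagln. Of 6 fibroblast genes, 2 were expressed and the sum was 43.6 and 28.7 FPKM, with Dcn at 42.0 and 27.3 FPKM, a log2 difference of -0.60, and Pdgfra at 1.10 and 1.05 FPKM, while Col1a1, Col1a2 and Col3a1 were under 0.15 FPKM. Of 6 Schwann cell genes, 4 were expressed and the sum was 26.2 and 23.5 FPKM, led by Mbp at 16.2 and 16.0 FPKM and Pmp22 at 5.89 and 4.22 FPKM. Of 6 adipocyte genes, 2 were expressed and the sum was 1.92 and 4.61 FPKM, with Fabp4 at 0.692 and 3.48 FPKM and Lpl at 1.08 and 0.954 FPKM, with Plin1 listed at 0 at 2 months.

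Skeletal muscle genes had higher values at 6 months. Of 8 genes, 6 were expressed and all 6 were higher, 5 of them by at least 1.5-fold, where the background of higher genes was 1.05%, and the sum went from 20.5 to 32.7 FPKM, with Tnnc2 from 2.14 to 5.57 FPKM and Tnni2 from 11.2 to 11.9 FPKM. Lama2, Itga7 and Itgb1bp2, which were linked to muscle above, stayed under 0.27 FPKM at both ages, but they are not all the members that muscle can express. The part of muscle RNA in the values of the other members, such as Agrn, Hspg2, Lamb2 and Lamc1, was not tested.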

How the data were processed

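The authors sequenced CV/Fol taste cell RNA from 3 pools of mice at 2 months and 3 at 6 months of age. The authors mapped reads to GRCm38/mm10 with TopHat2 2.0.7 and the iGenomes RefSeq annotation, quantified genes with Cufflinks 2.1.1 and compared the ages with Cuffdiff, per the methods and the submitters' processing notes. The library normalization and the strand setting are not given in the sources used here. The deposited table holds 1 FPKM value of the authors per gene and age. Its column of the authors' own comparison holds unadjusted p-values and was not used. The 6 month column was recognised by the letter B of the sample titles. FPKM keeps no read count here, so depth and precision are unknown.

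Log2 differences used a pseudocount of 1 FPKM, a filter on the mean of 1 FPKM or more, and a bar of 1.5-fold or a log2 difference of 0.32, with no test. The members and the lists were chosen with earlier results of these data known. Named genes are the expressed members, of which 1 is counted but not reported individually here, the 3 largest differences of each of 5 pathway lists and the 2 highest markers of each of 10 lists. Other named genes and 2 marker lists were added with the values known. Coordinates, lengths and GC content come from GENCODE M21 (GRCm38), in which 99.2% of the expressed genes were found, and promoters from RefSeq (GRCm38.p6). Genes were binned at transcript lengths of 2000, 4000 and 6000 bases and GC contents of 50 and 55%. The calculations were tested on simulated data and were made in Python 3.11.15 with pandas 2.3.3, numpy 2.4.6, matplotlib 3.10.9 and scipy 1.17.1.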

Additional observations from a re-analysis of the deposited data

How the results depend on the processing

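No paired analysis was possible because only pooled values of each age were at hand, and for this reason no replicate could be left out. A value was counted as moved when it changed by 0.1 or more on the log2 scale or, for a count, by over 1.5 times. The number of expressed members was 27, and 13 at a mean of at least 5 FPKM. The number of members past 1.5-fold was 0, and it was 1 with a pseudocount of 0.1 and 1 with equal summed FPKM without microRNA and small nucleolar RNA genes, and 2 when the bar was a log2 difference of 0.32. In the order of laminin chains, 2 chains changed rank at 2 months alone. The median of the other integrin ligands, -0.19, was -0.0088 without a filter and -0.039 at a mean of at least 5 FPKM, where the genes kept differ. The median of the members lay between 0.03, without a filter, and 0.19, with equal summed FPKM. Of 81 single-gene values under the pseudocount of 0.1 and both scalings, 2 moved by 0.1 or more, and 4, of Itgb1, Itgb6 and Itgb8, changed sign. The scalings multiplied the 6 month values by 1.03 and 1.07, which shifts a log2 difference by less than 0.1. Only the values under the pseudocount of 0.1 could therefore count as moved, so the 2 of 81 does not show how firm the values are under scaling. Centring on bins of length and GC content, the scaling without genes listed at 0 and the count of higher members under each setting were added after the data had been seen. Depth could not be read from FPKM, so the precision of the genes under 1 FPKM is unknown.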
